A study of Mus musculus with 4 samples.

Results

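A set of 10 genes of glutathione metabolism and peroxide defence was followed through the cell classes of the mouse retina, in NLGF and in wild-type (WT) animals. They are Chac1, Gclc, Gclm, Gss, Gsr, Gpx4, Prdx6, Hmox1, Nqo1 and Gstm1, and all 10 were found among the 32285 genes of the deposited matrices. Members were taken by symbol from a fixed list, with no threshold on a measured value, but the list was chosen with earlier results of these data known. NLGF mice carry a knock-in at the App locus with a humanised and mutated amyloid beta sequence (the Swedish, Iberian and Arctic mutations), expressed from the App promoter itself in every cell that uses it. The labels give the genotype only as nlgf, without zygosity. The samples were 1 retina each from an NLGF female, an NLGF male, a WT female and a WT male aged 30 days, profiled as 4 droplet-based single-cell RNA-seq libraries. Endoplasmic reticulum stress of Müller glia, radial cells that span the retina, is named in the title of the study, and each gene here was compared between genotypes within each class.

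Glutathione is a tripeptide of glutamate, cysteine and glycine that serves cells as their main soluble thiol. Glutamate-cysteine ligase (Gclc and Gclm) and glutathione synthetase (Gss) build it, glutathione reductase (Gsr) restores it after oxidation, and gamma-glutamylcyclotransferases such as Chac1 break it down. Peroxidases (Gpx4, Prdx6) and transferases (Gstm1) spend it on peroxides and reactive compounds, and the transcription factor NRF2 is known to induce Gclc, Gclm, Nqo1 and Hmox1. In the retina Müller glia are known as a glutathione-rich cell type.

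The libraries held 8060 barcodes (NLGF female), 9005 (NLGF male), 9058 (WT female) and 9068 (WT male), with 19128388 to 23473093 UMIs (unique molecular identifiers, each counting 1 captured transcript) per library. After filtering, 31329 cells fell into 38 clusters, and 9 classes had at least 10 cells in every library. Class names were given from markers only, so each class is Müller-like or rod-like rather than proven. Müller glia numbered 409 and 378 cells in the NLGF female and male, against 256 and 379 in the WT female and male, with 1310215 to 2048884 UMIs per library. All 9 Müller markers were detected in the class and none differed at an adjusted p under 0.05 (edgeR quasi-likelihood test, n = 2 per genotype). Sox9 came nearest, with both NLGF libraries above both WT libraries (log2 fold change 0.42, adjusted p = 0.0586 in the same test). The summed level of the 5 astrocyte markers in this class was 41.8 and 44.4 CPM in NLGF, against 696 in the WT female and 75.3 in the WT male. CPM here are UMIs per 1000000 UMIs of the genes tested in the class. Of the 4 astrocyte markers tested, 2 were called lower. The 8 rod markers summed to 1905 and 1935 CPM in NLGF, against 2458 and 1872 CPM in WT. The 8 microglial markers summed to 4.87 and 10.2 CPM in NLGF, against 3.11 and 3.56 CPM in WT, from 6 of them, with Cx3cr1 and Tmem119 at 0. The 6 markers of retinal pigment epithelium summed to 12.7 and 112 CPM in the NLGF female and male, against 10.9 and 278 CPM in the WT female and male, and the WT male stood highest. Across libraries, 132 barcode sequences occurred in 2 libraries (94 among the cells used) and 0 in 3 or more.

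In Müller glia, 2 of the 10 genes differed between genotypes: Chac1 rose and Prdx6 fell. Hmox1 had too few UMIs to be tested, and the other 7 genes had log2 fold changes between -0.001 and 0.52 with adjusted p of 0.596 or more. Over all 11109 genes tested in Müller glia, 115 were called at an adjusted p under 0.05, which is 1.04%, with 0.585% higher and 0.45% lower in NLGF. The members were chosen with earlier results of these data known, so the 2 calls beside this share are no test of the set. The median log2 fold change was 0.21 over the 9 members tested and 0.00 over all genes tested. Here and below, p-values are from edgeR's quasi-likelihood test with Benjamini-Hochberg adjustment over all genes of the class. The test sets a difference against the spread between 2 animals per genotype, with each gene's spread drawn towards that of other genes. The 2 animals of a genotype are a female and a male and sex was not a term, so this spread includes sex.

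**Figure D1:**
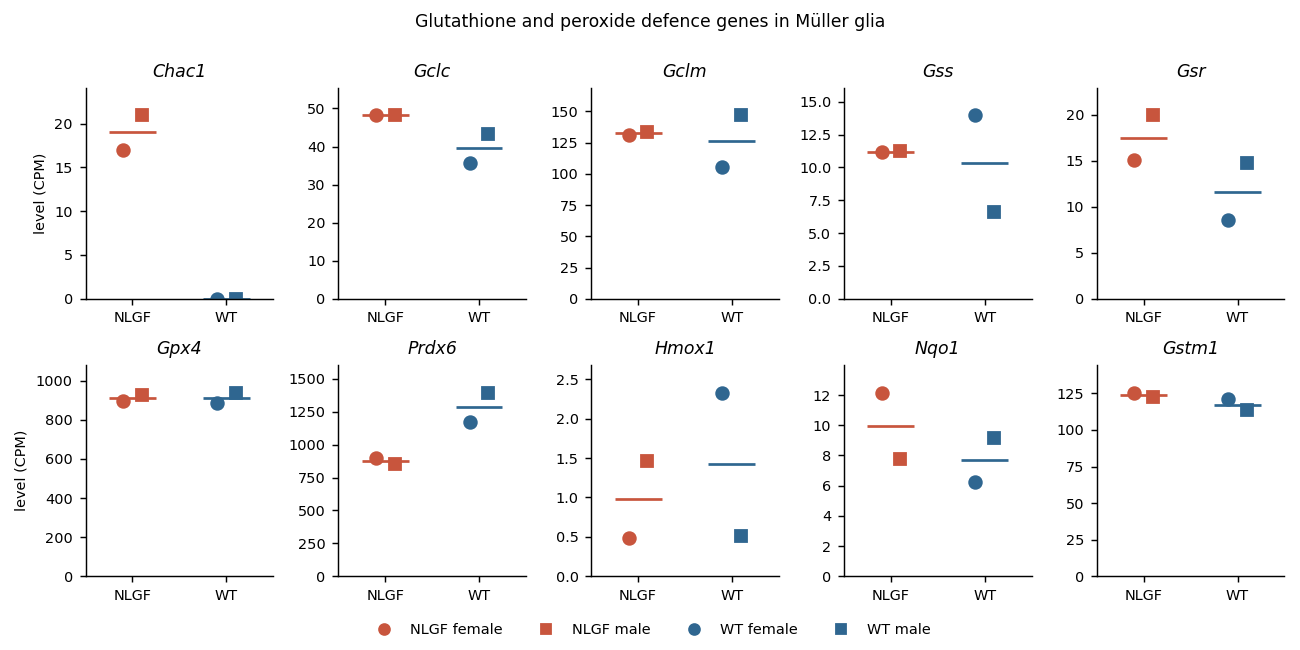
Level in CPM (y axis, from 0) of each gene in Müller glia of the 2 NLGF and 2 WT libraries, circles for females, squares for males and lines for the genotype mean. Chac1 is at 0 in both WT libraries, and both NLGF points of Prdx6 lie below both WT points.

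Chac1 encodes the cyclotransferase that cleaves glutathione in the cytosol, and is a known target of ATF4 and CHOP in the integrated stress response. The gene lies on chromosome 2, 119351229 to 119354381, plus strand (ENSMUSG00000027313, GRCm38, as are all positions here). Müller glia held 35 Chac1 UMIs (17.0 CPM) for the NLGF female and 43 (21.0 CPM) for the NLGF male, against 0 UMIs in the WT female and 0 in the WT male. The groups did not overlap, and the level in NLGF was at least 20.6-fold higher when WT was set to a floor of 3 UMIs over the group. The difference passed the test (adjusted p = 9.18e-05) and also passed it under each of 14 alternative analyses (highest adjusted p = 0.0300). In each other class Chac1 had too few UMIs to be tested.

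The Chac1 promoter is shown as a description, for a match of letters, and binding was not measured. The window runs from 250 bases before to 50 bases after a RefSeq start (chr2:119350992-119351291, plus strand, GRCm38.p6). Capitals mark a match to TGATGNAA, the core of the C/EBP-ATF composite element, read on the minus strand and starting 193 bases before the start.
Chac1: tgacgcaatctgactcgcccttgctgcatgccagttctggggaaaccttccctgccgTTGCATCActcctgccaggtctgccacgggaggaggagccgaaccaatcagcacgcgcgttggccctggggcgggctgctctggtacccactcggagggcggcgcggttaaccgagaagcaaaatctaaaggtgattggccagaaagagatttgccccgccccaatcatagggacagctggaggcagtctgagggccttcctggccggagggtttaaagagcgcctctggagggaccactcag
The same core was found, on either strand, in 3.97% of the 32851 promoters of this length in the RefSeq table. The antioxidant response element core TGACNNNGC (12.4% of promoters) and the cyclic AMP response element TGACGTCA (1.79%) had no match in this window, and no match overlapped another.

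Chac1 UMIs lay mostly in Müller glia in NLGF and nowhere in Müller glia in WT. Of 86 Chac1 UMIs over all NLGF cells used, 78 (90.7%) were in Müller glia, in 63 cells, with 5 in rods, 2 in amacrine cells and 1 in a cell of an unnamed cluster. Of 11 Chac1 UMIs over all WT cells, 6 were in amacrine cells, 2 in 1 ganglion cell, 2 in cone bipolar cells and 1 in a cone. Outside Müller glia the total was therefore 8 in NLGF and 11 in WT.

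At least 1 Chac1 UMI was found in 26 of 409 Müller cells of the NLGF female (6.36%, exact 95% binomial interval 4.19 to 9.18) and in 37 of 378 cells of the male (9.79%, 6.99 to 13.2). In WT it was found in 0 of 256 cells of the female and 0 of 379 of the male, which allow shares of up to 1.17% and 0.792% by a limit of 3 cells, or 1.43% and 0.969% by the exact interval. These limits are for cells with a UMI, not for cells that express the gene, at median depths of 3358.5 and 1750 UMIs. No Müller cell held more than 3 Chac1 UMIs. Intervals and limits cover counting error only. After thinning each cell to 1000 UMIs, 3 of 269 cells (1.12%, 0.231 to 3.22) and 6 of 254 cells (2.36%, 0.872 to 5.07) remained positive in the NLGF female and male, against 0 of 189 and 0 of 250 in the WT female and male. In this thinning 140 and 124 shallower cells were left out in NLGF and 67 and 129 in WT, and the intervals of the 2 genotypes overlap. The thinning is 1 random draw; a separate draw for single clusters left 3 of 182 and 1 of 177 deep cells of the NLGF female and male positive. In rods, taken as the background, Chac1 had a UMI in 2 of 5633 cells (0.0355%) of the NLGF female and 3 of 6200 (0.0484%) of the NLGF male, and in 0 cells of both WT libraries. Thinned to the same 1000 UMIs, 1 of 2252 and 0 of 2656 rods of the NLGF female and male held one. Median depth was 2257 and 3484.5 UMIs in NLGF Müller cells and 886 and 916 in NLGF rods. With 2 animals per genotype no permutation test over animals can pass 0.05, so none was run on these shares.

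The Chac1 UMIs were concentrated in the deepest of the 3 Müller clusters. In that cluster 25 of 182 cells (13.7%) of the NLGF female and 33 of 177 (18.6%) of the NLGF male held one, at median depths of 9790.5 and 9904 UMIs. In the cluster of fewest UMIs per cell the counts were 1 of 204 and 4 of 188 at medians of 767.5 and 781.5 UMIs. As a level the shallow cluster had 4.54 and 21.2 CPM and the deep cluster 19.2 and 21.6 CPM in the NLGF female and male, the shallow values from 1 and 5 UMIs. The small middle cluster had no Chac1 UMI among 23 and 13 NLGF cells, which at that number allows shares of up to 13.0% and 23.1%.

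**Figure D2:**
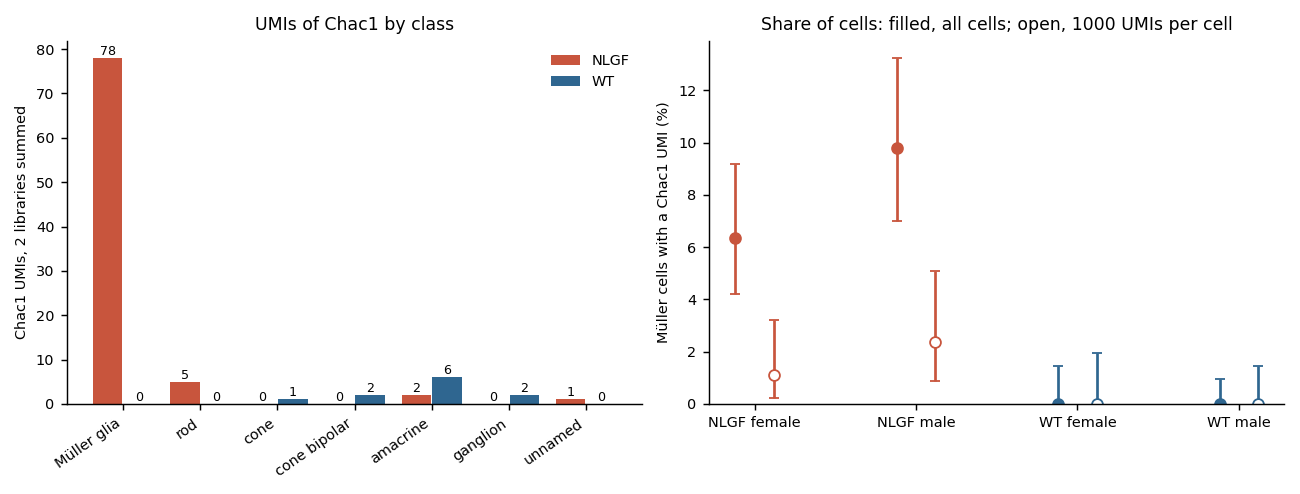
Left, Chac1 UMIs summed over the 2 libraries of each genotype by class (bars from 0). Right, percent of Müller cells with at least 1 Chac1 UMI in each library with exact 95% binomial intervals, filled points for all cells and open points for cells thinned to 1000 UMIs. The 78 UMIs in NLGF Müller glia stand against 0 in WT Müller glia.

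Within the deep cluster, NLGF cells with and without a Chac1 UMI were set side by side as a description. Gclc had 73.1 and 66.5 CPM in Chac1-positive cells of the NLGF female and male, against 45.7 and 46.6 CPM in their Chac1-negative cells. Ddit3 had 312 and 260 CPM in positive cells, against 217 and 214 CPM in negative cells. Atf4 had 177 and 298 CPM in positive cells, against 205 and 227 CPM in negative cells, and so ran in opposite directions in the female and the male. Prdx6 had 835 and 859 CPM in positive cells, against 929 and 870 CPM in negative cells. Gclm had 112 and 127 CPM in positive cells, against 134 and 141 CPM in negative cells. Gpx4 had 832 and 842 CPM in positive cells, against 847 and 885 CPM in negative cells, and Gstm1 had 112 and 119 CPM against 125 and 123 CPM. Values of Prdx6, Gclm, Gpx4 and Gstm1 were thus lower in the positive cells of both libraries, and those of Gclc and Ddit3 higher, without a test. Counts in the positive cells of the NLGF female and male were low for Gclc (19 and 23 UMIs), Gclm (29 and 44) and Gstm1 (29 and 41). Some gaps were small, such as 859 against 870 CPM for Prdx6 in the male. Whether any gap exceeds counting error was not tested. Gss, Gsr, Nqo1 and Hmox1 had 6 or fewer UMIs in the positive cells of each library. These values rest on 25 and 33 positive cells, whose median depth (10321 and 10866 UMIs) was above that of the negative cells (9664 and 9856.5).

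Summed over all Müller cells, with and without a Chac1 UMI, 2 transcription factors that bear on Chac1 rose. Atf4, the central factor of the integrated stress response, had 200 and 230 CPM in the NLGF female and male, against 83.9 and 76.3 CPM in the WT female and male (log2 fold change 1.43 ± 0.11, SE, edgeR adjusted p = 1.28e-06). Ddit3, which encodes CHOP, had 221 and 220 CPM in NLGF, against 54.4 and 70.8 CPM in WT (1.79 ± 0.12, adjusted p = 2.11e-07). Trib3, a pseudokinase induced by CHOP, had 12 and 13 UMIs in NLGF against 0 and 1 in WT and did not pass (adjusted p = 0.0545). Nfe2l2, which encodes NRF2, had 75.9 and 85.3 CPM in NLGF, against 84.7 and 78.9 CPM in WT, and its groups overlapped (-0.02 ± 0.13, adjusted p = 0.985). NRF2 is regulated largely through its protein, which was not measured. Chac2, a relative of Chac1 that degrades glutathione slowly, had 12.7 and 15.6 CPM in NLGF against 6.22 and 15.3 CPM in WT (0.29 ± 0.35, adjusted p = 0.830).

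Prdx6 was the one member that fell. It encodes a peroxiredoxin that reduces peroxides, including those of phospholipids, with glutathione as its thiol donor, and lies on chromosome 1, 161240112 to 161251219, minus strand (ENSMUSG00000026701). In Müller glia Prdx6 stood at 897 and 849 CPM in the NLGF female and male, against 1173 and 1395 CPM in the WT female and male, from 1509 to 2740 UMIs per library. Both NLGF libraries were below both WT libraries, and the NLGF mean was 32.0% lower (log2 fold change -0.56 ± 0.10, SE, edgeR adjusted p = 0.0138). The log2 ratio was -0.39 between the females and -0.72 between the males. The call passed in 11 of 14 alternative analyses with log2 fold changes of -0.68 to -0.42. The 3 losses came on leaving out the WT male (adjusted p = 0.0888), on leaving out the NLGF male (0.153) and on testing all genes unfiltered (0.256), and the direction was kept in each. Reads of the near-identical gene Prdx6b could count towards Prdx6, which the files do not resolve.

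In each Müller cluster both NLGF values of Prdx6 were below both WT values. In the deep Müller cluster Prdx6 had 915 and 868 CPM in NLGF against 1187 and 1406 CPM in WT. In the shallow cluster it had 930 and 862 CPM in NLGF against 1218 and 1210 CPM in WT. In the middle cluster it had 305 and 318 CPM in NLGF, from 18 and 11 UMIs, against 524 and 520 CPM in WT, from 40 and 32 UMIs. The clusters come from the same animals, so they do not replicate each other. The middle cluster held all 9 Müller markers but none among its top 10 genes, which Sned1, Col5a1 and Ccn2 led, so its name is less sure. With doublets kept, a cluster of 115 cells with Sned1 and Ccn2 among its top 10 genes was named astrocyte. Whether it holds the same cells was not tested. The name of the shallow cluster (699 cells) is less sure too. It also had no Müller marker among its top 10 genes, and its scaled level of these markers was 0.824. That level was 0.935 in the middle and 0.996 in the deep cluster. Without the middle cluster the Müller log2 fold change of Prdx6 was -0.58 (adjusted p = 0.00171), in an alternative chosen after the data were seen. Median mitochondrial shares of Müller cells were 7.29% and 7.65% in NLGF, against 8.11% and 8.98% in WT. Among cells with at most 10% mitochondrial UMIs the log2 fold change was -0.56 (adjusted p = 7.43e-04). Leaving out cells with at least 2 astrocyte markers gave -0.54 (0.0176). The pigment epithelium markers of the WT male lay in the shallow cluster (2514 CPM) and were at 8.60 CPM in its deep cluster, where Prdx6 was at 1406 CPM. Without the shallow cluster Prdx6 was at -0.57 (adjusted p = 0.00150).

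The genes of glutathione synthesis did not pass the test in Müller glia. Gclc, the catalytic subunit (chromosome 9, 77754535 to 77794485, plus strand), had 48.2 and 48.3 CPM in NLGF, against 35.7 and 43.3 CPM in WT, so both NLGF libraries were above both WT libraries without a call (0.27 ± 0.17, SE, adjusted p = 0.618). Gclm, the modifier subunit (chromosome 3, 122245557 to 122270732, plus strand), had 131 and 134 CPM in NLGF, between the WT female at 106 and the WT male at 147 CPM (0.04 ± 0.13). Gss, which adds the glycine (chromosome 2, 155563181 to 155592810, minus strand), had 11.2 and 11.2 CPM in NLGF, likewise between the WT values of 14.0 and 6.62 CPM (0.21 ± 0.37). For Gclm and Gss the WT libraries thus differed more from each other than the genotype means did.

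The Gclm promoter is shown as the one member window that holds the antioxidant response element core (chr3:122245307-122245606, plus strand, GRCm38.p6). Capitals mark the match to TGACNNNGC, read on the minus strand and starting 134 bases before the start.
Gclm: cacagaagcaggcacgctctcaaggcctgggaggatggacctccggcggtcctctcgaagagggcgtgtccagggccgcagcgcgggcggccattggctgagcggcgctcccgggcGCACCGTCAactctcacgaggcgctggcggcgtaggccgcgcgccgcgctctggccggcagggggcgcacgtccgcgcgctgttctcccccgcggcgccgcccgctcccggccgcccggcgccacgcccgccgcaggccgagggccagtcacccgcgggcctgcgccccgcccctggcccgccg
Windows of 6 members were in the table (Chac1, Gclm, Gss, Gstm1, Nqo1 and Gpx4, with 10 windows in all because some genes have several starts). Chac1 and Gclm had the matches given, and the windows of Gss, Gstm1, Nqo1 and Gpx4 had no match to the 3 motifs. A match is a run of letters and says nothing of binding, and these windows reach 250 bases before the start and no farther.

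The enzymes of reduction, conjugation and detoxification gave no called difference in Müller glia. Gsr, which regenerates reduced glutathione (chromosome 8, 33652523 to 33698163, plus strand), had 15.1 and 19.99 CPM in NLGF, against 8.55 and 14.8 CPM in WT, without overlap and without a call (0.52 ± 0.31, adjusted p = 0.596). Gpx4, the glutathione peroxidase of membrane lipid peroxides and a guard against ferroptosis (chromosome 10, 80047166 to 80056439, plus strand), had 898 and 929 CPM in NLGF, against 888 and 939 CPM in WT (-0.001 ± 0.096, adjusted p = 0.998). This value rests on 1143 to 1905 UMIs per library. Gstm1, a mu-class transferase (chromosome 3, 108012255 to 108017973, minus strand), had 126 and 122 CPM in NLGF, against 121 and 114 CPM in WT, with both NLGF libraries slightly above both WT libraries (0.08 ± 0.11, adjusted p = 0.837). Nqo1, a quinone reductase (chromosome 8, 107388225 to 107403206, minus strand), had 12.2 and 7.80 CPM in NLGF, against 6.22 and 9.16 CPM in WT, with overlapping groups (0.33 ± 0.39, adjusted p = 0.825). Hmox1, the inducible haem oxygenase (chromosome 8, 75093621 to 75100589, plus strand), had 1 and 3 UMIs in NLGF Müller glia, against 3 and 1 UMIs in WT. Counts of Gpx4 and Gstm1 are uncertain to the extent that reads of a Gpx4 pseudogene or of the other mu-class genes were shared.

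Outside Müller glia no member passed the test in any of the other 8 classes. Over 43 tests of a member in a class, edgeR called 0, with adjusted p from 0.564 to 1.00, and 1 had an unadjusted p under 0.05; DESeq2 also called 0. The share of all genes called was 0.0081% in rods, 0.0107% in rod bipolar, 0.0134% in ganglion, 0.0268% in amacrine, 0.096% in endothelial and 0.129% in cone bipolar cells, and 0.0% in cones and microglia. Few genes of any kind were thus called there. Low counts also kept many members out: 8 members could be tested in rods, 7 in amacrine cells, 6 each in cones, rod bipolar and cone bipolar cells, 5 in ganglion cells, 4 in endothelial cells and 1 in microglia.

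The one unadjusted difference was Gpx4 in rods. It had 907 and 967 CPM in the NLGF female and male, against 1037 and 1301 CPM in the WT female and male, with both NLGF libraries lower (log2 fold change -0.32 ± 0.12, unadjusted p = 0.0214, edgeR adjusted p = 0.564). The WT male stood highest, and median mitochondrial shares of rods were 2.57% and 2.79% in NLGF, against 3.01% and 4.42% in WT; the part of this share in the result was not tested. Without the WT female, Gpx4 in rods was -0.48 and passed (adjusted p = 1.37e-12) in a fit where the WT male is the only WT library and is assumed to vary as the NLGF pair does; without the WT male it was -0.15 (0.547). Over the 7 other classes where it was tested, Prdx6 had log2 fold changes from -0.66 in endothelial to 0.26 in amacrine cells. Over 8 classes Gpx4 ran from -0.32 in rods to 0.27 in microglia. The classes come from the same animals, so their directions are not independent. In rods Prdx6 had 17.0 and 19.4 CPM in NLGF, against 22.9 and 20.3 CPM in WT, with both NLGF libraries lower and no call (-0.24 ± 0.14, adjusted p = 0.672).

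**Figure D3:**
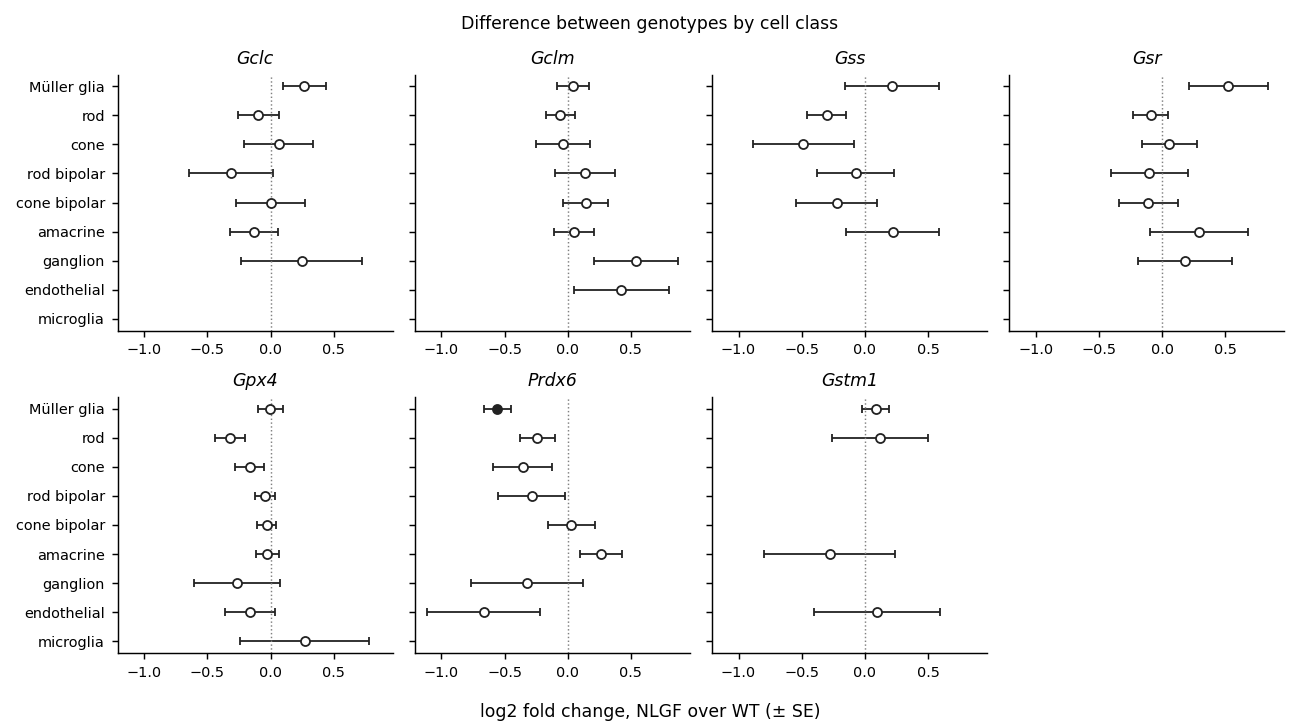
Log2 fold change of NLGF over WT with its standard error (x axis) by class (rows) for the 7 genes tested in more than 1 class; filled points passed an adjusted p of 0.05. The one filled point is Prdx6 in Müller glia at -0.56, and a class without a point had too few UMIs.

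Whether the Müller change itself differed from that in rods was tested as an interaction over both classes, in which 49 of 13562 genes (0.361%) passed. None of the 8 members fitted did, with 1 at an unadjusted p under 0.05. For Prdx6 the Müller minus rod difference of the log2 fold changes was -0.31 ± 0.17 (SE, edgeR adjusted p = 0.650), so the fall of Prdx6 was not shown to be larger in Müller glia than in rods. That difference was -0.08 without the WT male and -0.52 without the WT female. For Gpx4 it was 0.32 ± 0.14 (unadjusted p = 0.0195, adjusted p = 0.478), from -0.001 in Müller glia and -0.32 in rods, and for Gsr 0.60 ± 0.33 (adjusted p = 0.657). Chac1 could not be fitted, because both WT libraries had 0 UMIs in both classes, and Hmox1 had too few UMIs. Without the WT female the Gpx4 difference was 0.44 and passed (adjusted p = 3.15e-04), the single member call in this test across the leave-out analyses.

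The levels of the members by class form several patterns, given here over the 4 libraries as a description, since the classes come from the same cells. Müller glia made up 4.54% of the cells used and held 9.71% of their UMIs. They held 78.4% of Prdx6, 80.7% of Gstm1, 74.4% of Nqo1 and 80.4% of Chac1 UMIs, the last by way of the NLGF animals alone. The shares were 27.6% for Gclm, 20.1% for Gclc, 11.1% for Gpx4, 9.76% for Hmox1, 6.99% for Gss and 6.83% for Gsr. Most UMIs of Prdx6, Gstm1 and Nqo1 were thus in Müller glia, whereas for Chac1 this held in NLGF (78 of 86) and not in WT (0 of 11). The shares of Gss and Gsr were below the Müller share of all UMIs.

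Prdx6 averaged 1078 ± 255 CPM in Müller glia (SD, n = 4 libraries) and 94.0 ± 67.5 CPM in microglia, the next class, with ranges apart and an 11.5-fold gap. The microglial level rests on 1 and 2 UMIs in NLGF and 8 and 3 in WT. Its total counts only the 879 genes tested in microglia, which raises the level there and narrows the gap. Endothelial cells (64.3 CPM), amacrine cells (55.5), ganglion cells (38.2), cone bipolar cells (37.9), rod bipolar cells (28.9), cones (26.5) and rods (19.9) followed, each neighbour overlapping the next. The rod level was 1.85% of the Müller level, and for the 9 Müller markers the same percentage in rods ran from 0.438% to 1.25%. In amacrine cells Prdx6 was at 5.15%, with the markers at 0.209% to 17.8%.

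Gstm1 was high in Müller glia (121 ± 5.10 CPM) and next in endothelial cells (56.1 ± 20.1 CPM), and the ranges of these classes were apart from each other and from all others. The endothelial level, from 12 and 25 cells in NLGF and 29 and 22 in WT, was 46.5% of the Müller level, where the 9 Müller markers in endothelial cells lay between 0.0416% and 7.71%. Every other class averaged at most 5.10 CPM, and microglia had 0 UMIs. Nqo1 averaged 8.84 ± 2.52 CPM in Müller glia, overlapping endothelial cells at 4.74 ± 4.70 CPM, and had 0 UMIs in rod bipolar cells, cone bipolar cells and microglia. Among rods Nqo1 had 0 and 0 UMIs in NLGF against 1 and 1 in WT.

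The highest levels of Gclm were in endothelial cells (132 ± 63.8 CPM) and Müller glia (129 ± 17.3 CPM), which overlapped in range. The endothelial mean leans on the NLGF female (225 CPM from 20 UMIs in 12 cells), with the other libraries at 83.0 to 123 CPM. With raw totals the endothelial mean was lower, as given in the last section, so the order of these classes is unsure. Müller glia were 2.06-fold above and apart from ganglion cells at 62.7 ± 13.3 CPM. Amacrine cells followed at 56.6 ± 3.61 CPM and lay apart from cone bipolar cells at 42.2 ± 5.09 CPM, and rods (28.0 ± 1.17) and microglia (9.13 ± 18.3) were lowest. Among the 9 tested classes Gclc ran from 43.9 ± 5.89 CPM in Müller glia and 35.7 ± 2.82 CPM in amacrine cells to 14.2 ± 1.24 CPM in rods and 12.6 ± 1.94 CPM in rod bipolar cells, with every neighbour in the order overlapping. The few horizontal cells averaged 59.1 ± 13.7 CPM of Gclc and 60.9 ± 13.3 CPM of Gclm. Both ligase subunits were thus lower in rods and bipolar cells than in Müller glia and amacrine cells.

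Gsr and Gss followed another order. Among the 9 tested classes Gsr was highest in ganglion cells (50.5 ± 8.55 CPM) and cones (33.8 ± 4.91 CPM), whose ranges overlapped, and lowest in Müller glia (14.6 ± 4.69 CPM) and amacrine cells (9.24 ± 2.12 CPM). The class means of Gss ran from 8.74 to 17.2 CPM over the 9 classes. Single libraries ran from 0 to 26.3 CPM, both in microglia, with 0 or 1 UMI each. The highest mean, in endothelial cells, rests on 2 to 5 UMIs per library. The single gap in range between neighbours was that of rod bipolar cells (15.4 ± 1.72 CPM) above cone bipolar cells (11.9 ± 1.37 CPM). In the small horizontal class, with 9 cells in each NLGF library and 24 and 18 in WT, Gss had 12 and 29 UMIs in NLGF, against 32 and 9 in WT. Scaled to the raw totals this was 40.0 and 77.8 CPM in NLGF, against 51.3 and 21.0 CPM in WT, above the means of the 9 tested classes. Horizontal Gsr averaged 6.47 CPM (0 to 13.3), from 4 UMIs in NLGF and 6 in WT.

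Gpx4 was present in every class, with rods (1053 ± 174 CPM), Müller glia (913 ± 24.4 CPM) and cones (864 ± 96.7 CPM) overlapping at the top. The other tested classes averaged from 442 CPM in ganglion cells to 576 CPM in microglia. The microglial mean, from 14 and 16 UMIs in NLGF and 22 and 28 in WT, is raised by a total that counts only 879 genes. The place of microglia in this order is therefore unsure. Hmox1 was sparse, with 82 UMIs over all cells. Its highest mean, 15.7 ± 18.6 CPM in microglia, rests on 1 UMI in NLGF and 2 in WT. In rods Hmox1 had 10 and 14 UMIs in NLGF, against 9 and 10 in WT (0.37 ± 0.43, adjusted p = 0.858).

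**Figure D4:**
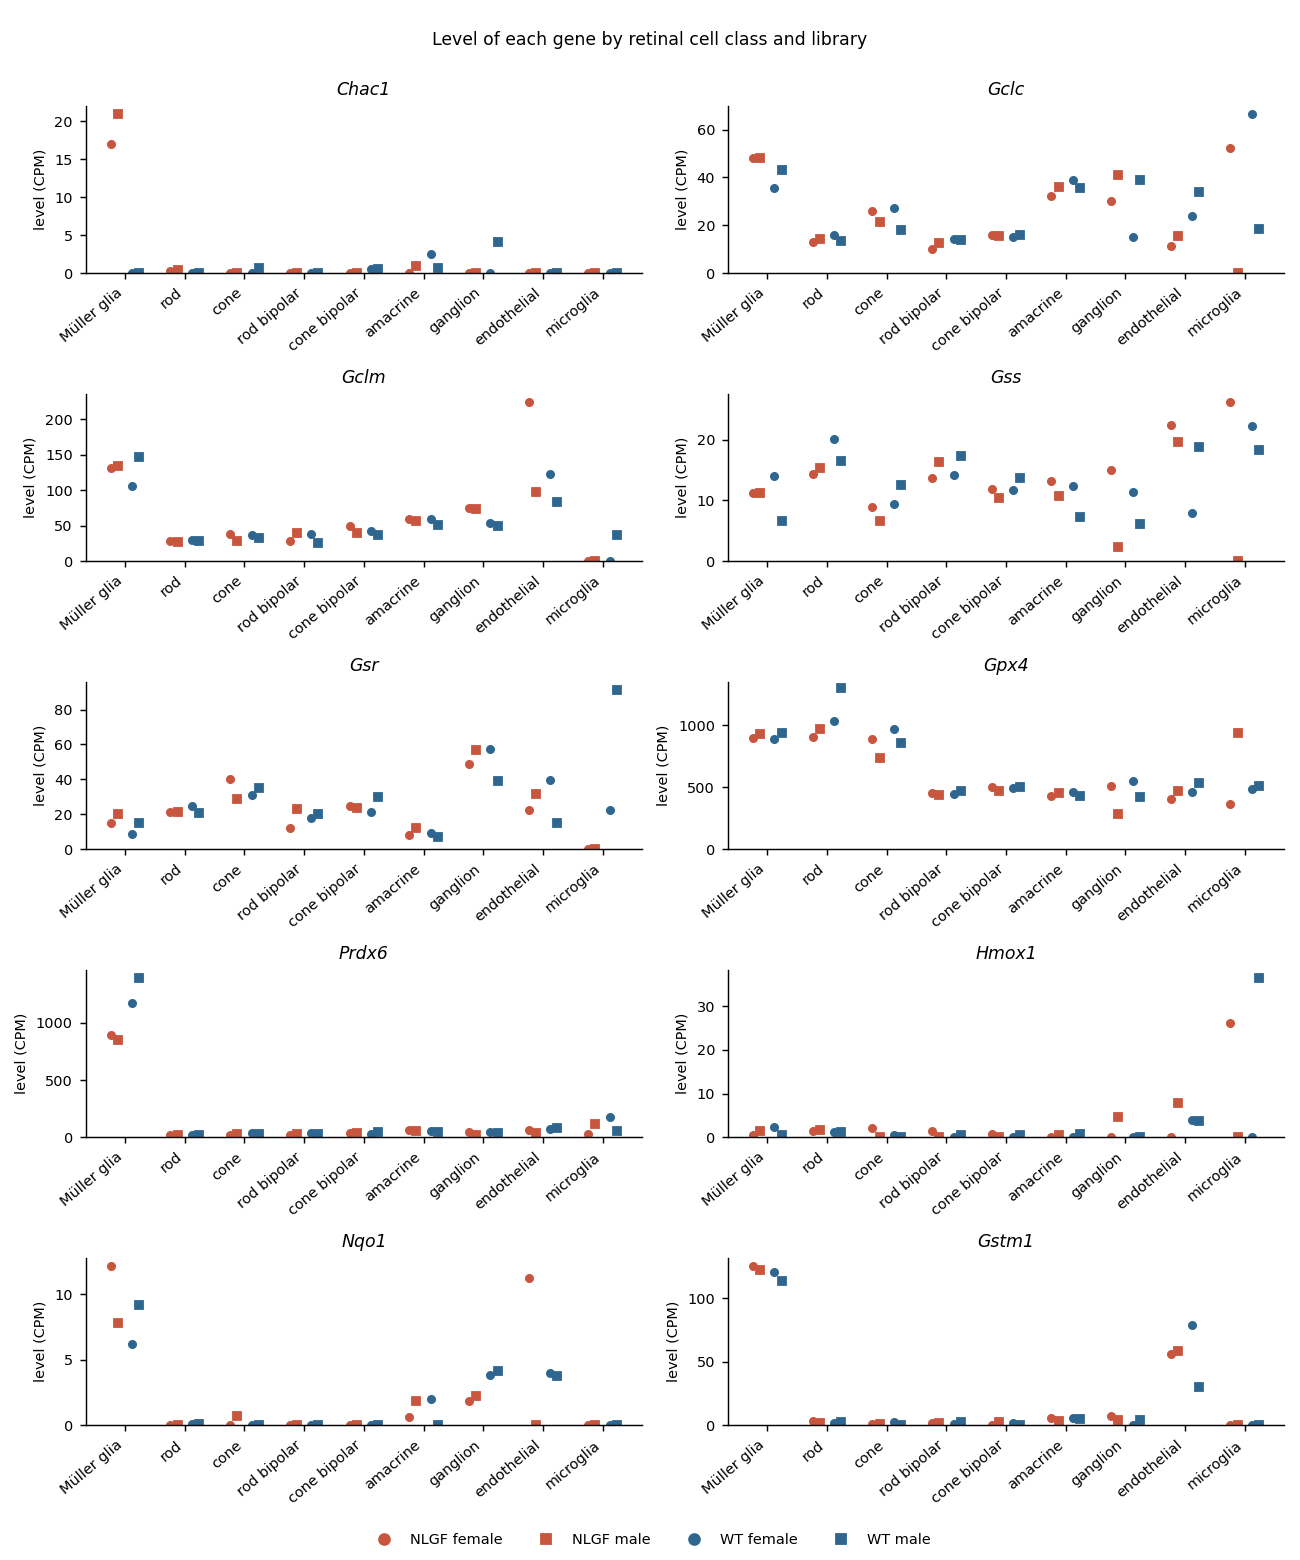
Level in CPM (y axis, from 0, own scale per gene) of each gene in 9 retinal classes (x axis), NLGF libraries to the left of WT libraries, circles for females and squares for males. Prdx6, Gstm1 and Nqo1 are highest in Müller glia, Gpx4 in rods, Müller glia and cones, and Gsr in ganglion cells.

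Genes whose pattern over the 36 class-by-library points was most like that of a member were listed by Pearson correlation of log2(CPM + 1). These are descriptions, since the points share libraries, classes and depth. For Prdx6 they were Dbi (0.95), Glul (0.90), the glutamine synthetase gene that marks Müller glia, and Gm15934 (0.90). For Gstm1 they were Csrp1 (0.95), Prss23 (0.94) and Cav1 (0.93), the last encoding caveolin-1, and for Gclm they were Tfdp2 (0.95), Cdc27 (0.95) and Bad (0.94). Gclc was nearest to Ostm1 (0.91), Apmap (0.86) and Stx8 (0.85), and Gpx4 to Rax (0.86), Tob2 (0.82) and Mmd2 (0.82). Gsr was nearest to Mroh1 (0.87), Tmem126b (0.86) and Ift172 (0.86), and Gss to Phf2 (0.86), Isg20l2 (0.85) and Sec11a (0.84). Chac1, Nqo1 and Hmox1 had fewer than 100 UMIs and were left out. Between members the highest correlations were 0.67 for Gstm1 with Prdx6 and 0.65 for Gstm1 with Gclm. Gclc with Gclm had 0.28 although their products form 1 enzyme. The microglial points held only 0 to 3 Gclc UMIs and 0 to 2 Gclm UMIs per library. How far such points at or near 0 set the correlations listed here was not tested.

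The wider pathway was read from 7 lists, chosen with earlier results of these data known, so shares of them are no test of the lists. The lists cover 91 genes, which are the 10 members and 81 others. Of these 81 others, 69 were tested in Müller glia and 0 passed with edgeR, with 14 (20.3%) at an unadjusted p under 0.05, where 10.9% of all genes tested were. The 14 split into 7 higher and 7 lower in NLGF, and the lowest adjusted p was 0.0750. None of the 81 passed in any other class with edgeR either, and DESeq2 called 0 of them in each of the 9 classes. In the other classes 0 to 7 of them had an unadjusted p under 0.05. Their share, against that of all genes tested, was 14.9% against 6.27% in rod bipolar cells and 11.9% against 8.36% in rods. It was 10.9% against 4.77% in amacrine cells, 10.2% against 5.69% in cones and 5.36% against 6.08% in cone bipolar cells. In endothelial cells it was 2.44% against 5.19%, in ganglion cells 0.0% against 4.82%, and in microglia 22.2% (2 of 9) against 9.33%. The lists had members called in Müller glia only through Chac1 (glutathione breakdown, 1 of 7 tested) and Prdx6 (peroxidases and superoxide dismutases, 1 of 14 tested).

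Several genes that supply or recycle the amino acids of glutathione had unadjusted p under 0.05 with higher values in NLGF. Slc3a2, the heavy chain partner of the cystine and neutral amino acid transporters, had 290 and 285 CPM in NLGF, against 254 and 199 CPM in WT (0.36 ± 0.11, SE, adjusted p = 0.187). Cth, which makes cysteine from cystathionine, had 48.2 and 46.3 CPM in NLGF, against 27.2 and 37.2 CPM in WT (0.52 ± 0.19, adjusted p = 0.290). Oplah, the 5-oxoprolinase downstream of the cyclotransferases, had 26.3 and 25.8 CPM in NLGF, against 17.9 and 18.3 CPM in WT (0.52 ± 0.23, adjusted p = 0.436). The peptidase gene Lap3 had a log2 fold change of 0.36 ± 0.14 (adjusted p = 0.354), while Cbs, which makes cystathionine, had -0.67 ± 0.30 (0.436). The median was 0.16 over the 9 synthesis and supply genes tested and 0.29 over the 7 breakdown genes tested, against 0.00 over all genes.

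Among the remaining lists the unadjusted differences ran both ways. Txnip, the thioredoxin inhibitor, had 149 and 138 CPM in NLGF, against 100 and 111 CPM in WT (0.43 ± 0.11, adjusted p = 0.0750), and Txn1, thioredoxin itself, had -0.24 ± 0.10 (0.387). Higher values were also seen for the transferase gene Gstp1 (0.76 ± 0.27, adjusted p = 0.282) and for Sqstm1, the autophagy receptor p62 (0.29 ± 0.10, 0.263). Lower values were seen for the transferase gene Gstt1 (-0.35 ± 0.11, adjusted p = 0.175), the peroxiredoxin gene Prdx5 (-0.27 ± 0.11, 0.393, groups overlapping) and the haem transporter gene Slc48a1 (-0.28 ± 0.12, 0.433). The NADPH-producing enzymes Idh1 (-0.34 ± 0.16, adjusted p = 0.456) and Me1 (-0.73 ± 0.34, 0.454) were lower too, though Me1 overlapped between groups, with 14.1 and 16.1 CPM in NLGF against 37.3 and 15.8 CPM in WT. List medians were 0.05 for glutathione reduction (9 tested), -0.06 for peroxidases and superoxide dismutases (14), 0.06 for the thioredoxin system (9), -0.04 for transferases (13) and 0.11 for NRF2 regulators, haem and quinone enzymes (17).

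**Figure D5:**
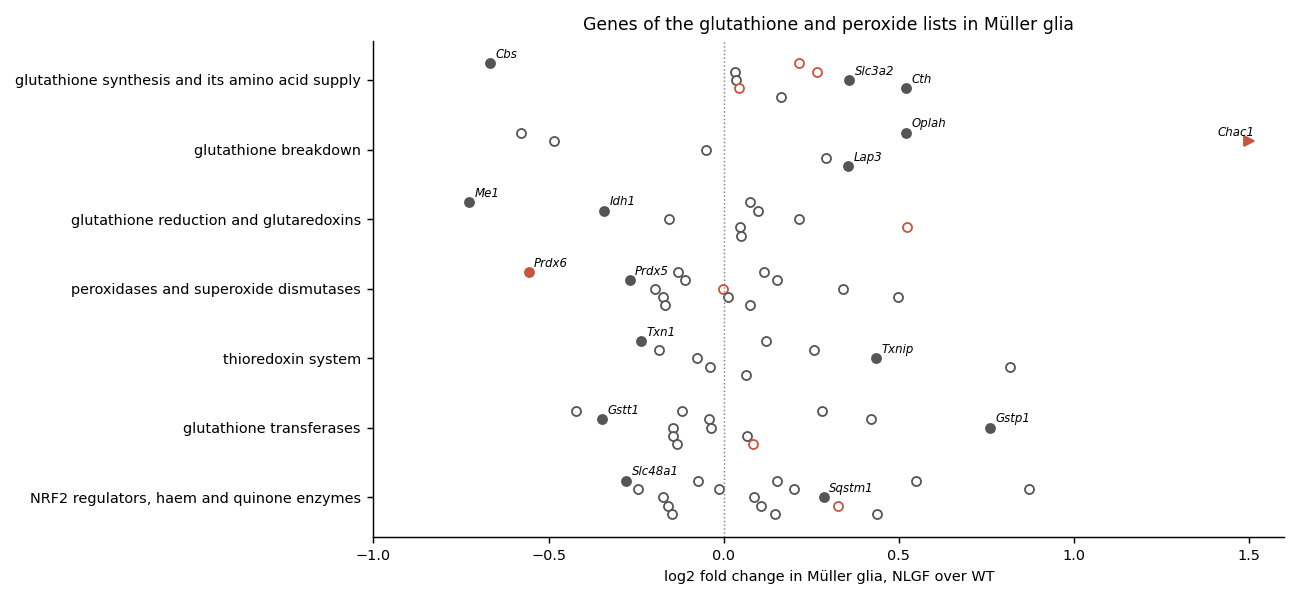
Log2 fold change of NLGF over WT in Müller glia (x axis) for every tested gene of the 7 lists (rows); filled points had an unadjusted p under 0.05 and are named, and members are in red. Chac1, drawn as an arrowhead at the right edge because its fitted value lies beyond the axis, and Prdx6 passed the adjusted threshold.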

How the data were processed

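Each library came as 1 matrix of unnormalised UMI counts, as deposited. The version is Cell Ranger 6.1.1 per the file headers and Cell Ranger 3.1.0, with STAR and mm10, per the submitters' processing notes. Whether the counting took in introns was not stated there. Of 35191 barcodes, 33329 passed minimums of 300 detected genes and a mitochondrial share of up to 20%. Scrublet's automatic threshold marked 2 cells, so the top 6% by score per library were removed (2000). Cells were scaled to 10000 UMIs, log transformed and clustered with scanpy 1.11.5 (2000 variable genes, 30 components, 20 neighbours, Leiden resolution 2). Clusters were named for the class with the highest mean marker level, scaled over clusters, plus 0.1 per marker among its top 10 genes, with at least 3 markers detected. Below a level of 0.55 it needed a marker among its top 10 genes, and clusters led by another class's markers stayed unnamed. The resolution and naming rule were set after the data were seen.

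Counts were summed per library and class and fitted with edgeR 4.0.16 in R 4.3.3 (TMM, filterByExpr, genotype as the only term, threshold 0.05). CPM use the TMM-scaled totals of the genes that passed filterByExpr, 11109 in Müller glia and 879 in microglia. Raw totals of all genes were used for horizontal cells, for single Müller clusters and for Chac1-positive cells. An SE is the size of the log2 fold change over the root of its F statistic. The interaction had library as a block. Alternatives were DESeq2 1.42.0, its size factors, no count filter, leaving out each library, sex as a block, doublets kept, thinned sums, at most 10% mitochondrial UMIs, and Müller glia without the shallowest cluster, without the middle one (added after the data were seen) or without cells holding at least 2 astrocyte markers. Pathway genes were named at an unadjusted p under 0.05 in Müller glia or a call in any class, and 3 most similar genes per member with at least 100 UMIs. The members, lists and tests were chosen with earlier results of these data known. Gene positions are from GENCODE M21 and promoters from RefSeq.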

Additional observations from a re-analysis of the deposited data

How the results depend on the processing

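In Müller glia the number of members past the threshold was 2 and moved to 1 (Chac1) without a filter on low counts. It was 1 to 2 without each library in turn, and 2 with sex as a replicate block and under the other alternatives. In rods, and in the Müller minus rod difference, it was 0 and ranged from 0 to 1 without each library, with Gpx4 called without the WT female; in the other 7 classes it was 0 under every alternative run. Of 641 alternative values of single members, 576 kept direction and side of the threshold, 60 uncalled values lay on the other side of 0, 3 lost and 2 gained a call, and 0 reversed. The number of all genes called in Müller glia, 115, was 279 with sex as a replicate block, 48 with DESeq2, 20 without a filter, 65 with thinned sums, 186 with doublets kept, 207 with at most 10% mitochondrial UMIs, 200 without the shallowest cluster and 81 to 148 without each library. Libraries share sex across genotypes in 2 pairs, with a correlation of same-sex deviations of 0.178 in Müller glia, and no label ties a pair to a litter or batch. Without thinning, 6.36% and 9.79% of NLGF Müller cells held Chac1, against 1.12% and 2.36% at 1000 UMIs per cell. With raw totals Gclm in endothelial cells was 120.0 CPM instead of 132 and Gss 15.6 instead of 17.2. The top of the class order for both genes thus depends on the totals used. The 2 animals per genotype and low counts of Hmox1, Nqo1 and Gss limit what these data can show, and the causes of lost calls were not tested.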
